A study of Gallus gallus with 3 samples.

Results

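The enzymes that build lanosterol, the first sterol of the cholesterol pathway, from acetyl-CoA were followed in granulosa cells of the hen through 3 stages of follicle growth. The members were named by their role as ACAT2, HMGCS1, MVK, MVD, IDI1, FDPS, FDFT1, SQLE and LSS, and each was looked up by its gene name or, where none was given, by the first symbol of its KEGG annotation. Of these 9 enzymes 8 had an entry among the 19309 genes with a value, and 7 had reads. MVK, mevalonate kinase, had no entry under that rule and is not analysed here, and FDPS was listed at 0 in each library. The other 7 had an FPKM (reads scaled to the length of the gene and the total of the library) of at least 1 in each library.

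RNA was taken from granulosa cells, the somatic cells around the oocyte, of the hen's ovary; the labels name no treatment, strain or genetic change, and they do not say from how many hens or follicles the RNA of a library was taken. The 6 mm group came from follicles 6 mm across that had not yet been selected for the final growth phase, in hens labelled 10 to 15 months old. The F5 group came from early preovulatory follicles in fast growth, in hens of 10 to 16 months, and the F1 group from late preovulatory follicles before ovulation, in hens of 10 to 17 months. Each group was 1 library. The 6 mm library held 14923359 reads, the F5 library 14137511 and the F1 library 14086626. Stage, library and the upper end of the labelled age range cannot be told apart. With 1 library a group no difference has a replicate check or a test. Ranges in brackets are exact 95% intervals and cover counting error alone.

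Cholesterol synthesis starts in the cytosol, where acetyl-CoA units are joined and turned into mevalonate. Mevalonate is phosphorylated and decarboxylated to the isoprene units, which are joined to farnesyl diphosphate and then to squalene, and squalene is oxidised and folded into lanosterol. In many animals these genes are controlled together by the SREBP transcription factors, which are released when membrane sterol is low. Granulosa cells of the hen's large follicles make progesterone, for which cholesterol is the starting material.

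Markers of granulosa cells were present in each library, with 6 of 6 at an FPKM of at least 1 in 6 mm and F5 and 5 of 6 in F1, and summed FPKM values of 1227, 5841 and 5843. AMH, a product of granulosa cells of small follicles, was the marker under 1 in F1. Summed markers of other cell types, leukocytes apart, were highest in 6 mm. The 11 genes of theca and smooth muscle summed to 1108 in 6 mm, 24.9 in F5 and 18.4 in F1, with CYP19A1 at 0 in F5 and F1 and COL1A1 and DCN at 0 in F5. Those of endothelium (6 genes) summed to 68.8, 13.1 and 2.68, of oocyte (4 with an entry) to 40.4, 9.94 and 0.457 and of surface epithelium (5) to 235, 23.7 and 3.36, with KRT18 and MUC16 at 0 in F5 and F1. Leukocyte markers (5) summed to 82.0, 42.7 and 133, of which CD74 alone was at an FPKM of at least 1 in F1, at 133, and the red cell genes HBAA and HBAD to 4.36 in 6 mm and 0 in F5 and F1. The part of these cells in the differences, those of F1 against F5 included, was not tested. The sum of theca and smooth muscle markers was low in both F5 and F1. Those of endothelium, oocyte and surface epithelium were lower in F1 than in F5, and that of leukocytes was higher. Of the leukocyte markers CD74 alone was higher in F1, at 40.5 in F5 and 133 in F1. PTPRC, CSF1R, CD3E and LCP1 were lower in F1 than in F5.

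Transcripts of the early pathway differed by less than 2-fold between 6 mm and F5, and most were higher in F1. Summed over the 7 enzymes with reads, the 6 mm library had an FPKM of 553, the F5 library 641 and the F1 library 1556. The step from F5 to F1 held 6 enzymes at least 2-fold higher, with HMGCS1 furthest at 9.72-fold, while FDFT1 differed by 1.04-fold. In bulk RNA, fewer cells of a type and less RNA per cell cannot be told apart.

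**Figure D1:**
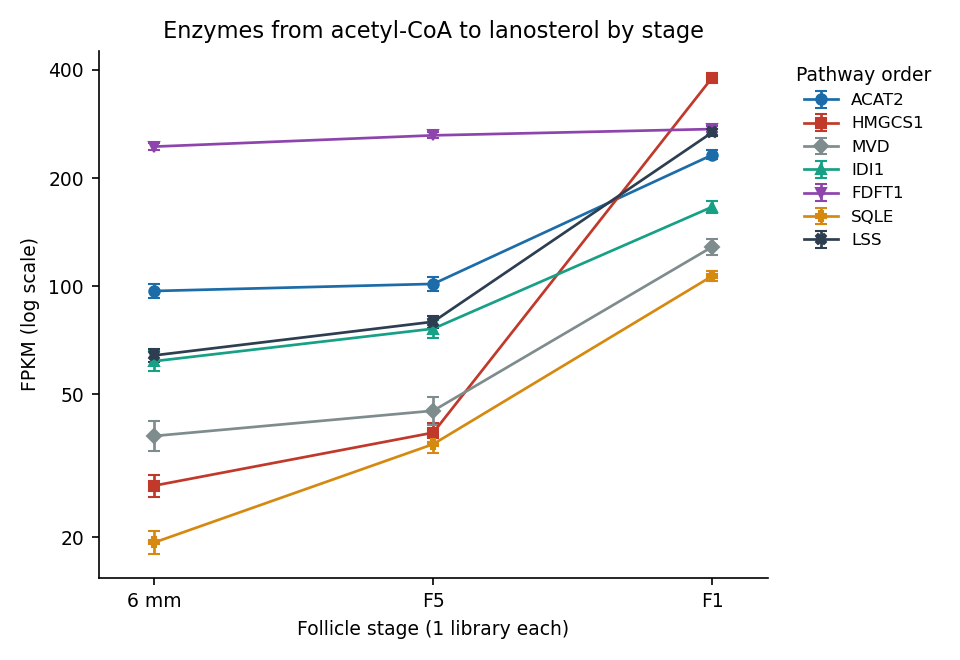
FPKM on a log axis in the 3 libraries for the 7 enzymes with reads, with bars for the exact 95% counting interval. The lines of 6 enzymes climb between F5 and F1, HMGCS1 from 39.1 to 380.5, whereas FDFT1 stays between 245 and 274.

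The pathway opens with ACAT2, the cytosolic thiolase that joins acetyl-CoA units to acetoacetyl-CoA. The ACAT2 gene (ENSGALG00000011659) lay on chromosome 3 from 44881987 to 44889927 on the minus strand, by the coordinates of the deposited files, whose genome build none of the sources at hand name. Its FPKM was 97.0 in 6 mm and 101 in F5, and 232 in F1. The 6 mm and F5 values differed by 1.05-fold (0.984 to 1.11), within counting error, and F1 was 2.29-fold above F5 (2.17 to 2.41).

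HMGCS1, the cytosolic HMG-CoA synthase, showed the widest span of the members. Its gene (ENSGALG00000014862) lay on the Z chromosome from 13514301 to 13524158 on the minus strand. HMGCS1 read 27.9 in 6 mm and 39.1 in F5, and 380.5 in F1 from at least 9990 reads. F5 was 1.40-fold above 6 mm (1.28 to 1.54), F1 was 9.72-fold above F5 (9.12 to 10.4) and 13.7-fold above 6 mm (12.7 to 14.7). HMGCS1 stood in position 6 of the 7 enzymes by level in 6 mm and in F5, and in position 1 in F1.

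For the kinases that phosphorylate mevalonate, PMVK could be followed by name and was called in no comparison. PMVK, phosphomevalonate kinase, is not a member and is given for its place in the pathway; it had 36.2 in 6 mm, 30.7 in F5 and 39.4 in F1, and F1 was 1.09-fold of 6 mm (0.926 to 1.28). MVK has no value here, but 2 entries without a symbol carried a protein domain description (InterPro) of mevalonate kinase. The entry ENSGALG00000013848 on chromosome 15 had 33.1, 20.4 and 27.4 in 6 mm, F5 and F1, and ENSGALG00000027759 on an unplaced scaffold had 20.8, 16.6 and 20.6. Both had their lowest value in F5, and F1 was 1.35-fold (1.15 to 1.58) and 1.24-fold (1.07 to 1.44) above it. Which of them, if either, is MVK is not annotated in the files.

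MVD, which decarboxylates the diphosphate to isopentenyl diphosphate, is the final step of the mevalonate section. Its gene (ENSGALG00000007267) lay on chromosome 11 from 17895874 to 17898830 on the minus strand. MVD had 38.3 in 6 mm, 45.0 in F5 and 129 in F1, with at least 423, 471 and 1341 reads. These minimum counts were the lowest among the members with reads in each library, which does not rank the reads themselves. F5 was 1.18-fold above 6 mm (1.03 to 1.34) and F1 2.86-fold above F5 (2.57 to 3.18).

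IDI1 interconverts the isoprene units isopentenyl and dimethylallyl diphosphate. Its entry (ENSGALG00000006723, chromosome 2 from 10368356 to 10373419, minus strand) took its symbol from the KEGG annotation. For IDI1 the values were 61.9 in 6 mm, 76.2 in F5 and 166 in F1. F5 was 1.23-fold above 6 mm (1.13 to 1.34), and F1 was 2.18-fold above F5 (2.04 to 2.34), the smallest ratio among the 6 enzymes past 2-fold. With the libraries scaled to the same FPKM sum, the IDI1 difference between F1 and F5 fell just under 2-fold, at 0.9991 on the log2 scale.

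FDPS joins isoprene units to farnesyl diphosphate, the branch point to sterols and other isoprenoids. Its entry (ENSGALG00000028880, chromosome 25 from 1367692 to 1369964, plus strand) was listed at 0 in 6 mm, F5 and F1. So were 2290 genes, 11.9% of the 19309. Since FDPS is used in nearly every cell, the listing is given as such and not as a level.

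Squalene synthesis by FDFT1, the first enzyme committed to sterols, had the steadiest transcript of the members. The FDFT1 gene (ENSGALG00000016665) lay on chromosome 3 from 106985673 to 106996753 on the plus strand. FDFT1 had 245 in 6 mm, 263 in F5 and 274 in F1. F5 was 1.07-fold above 6 mm (1.04 to 1.11), F1 1.04-fold above F5 (1.01 to 1.07) and 1.12-fold above 6 mm (1.09 to 1.15). These ratios lie outside counting error but turned below 1 in each comparison with every library brought to 1 common FPKM sum. Other scalings moved FDFT1 up. By median ratio its log2 difference was 0.59 in F1 against F5 and 0.75 in F1 against 6 mm. By upper quartile it was 0.56 and 0.69. So the data set no direction for FDFT1.

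SQLE, squalene epoxidase, adds the oxygen that becomes the sterol's hydroxyl group and is a regulated step in mammals. Its gene (ENSGALG00000016331) lay on chromosome 2 from 138265073 to 138279203 on the plus strand. SQLE was the lowest member in each library, at 19.4 in 6 mm, 36.3 in F5 and 107 in F1. F5 was 1.88-fold above 6 mm (1.72 to 2.06), the largest early difference of the members, and F1 was 2.94-fold above F5 (2.76 to 3.13) and 5.51-fold above 6 mm (5.10 to 5.97).

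LSS, lanosterol synthase, folds oxidosqualene into lanosterol and closes this section of the pathway. Its gene (ENSGALG00000006198) lay on chromosome 7 from 6911105 to 6920391 on the minus strand. LSS had 64.2 in 6 mm, 79.6 in F5 and 268 in F1. F5 was 1.24-fold above 6 mm (1.17 to 1.32), and F1 was 3.36-fold above F5 (3.22 to 3.52) and 4.17-fold above 6 mm (3.98 to 4.38).

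**Figure D2:**
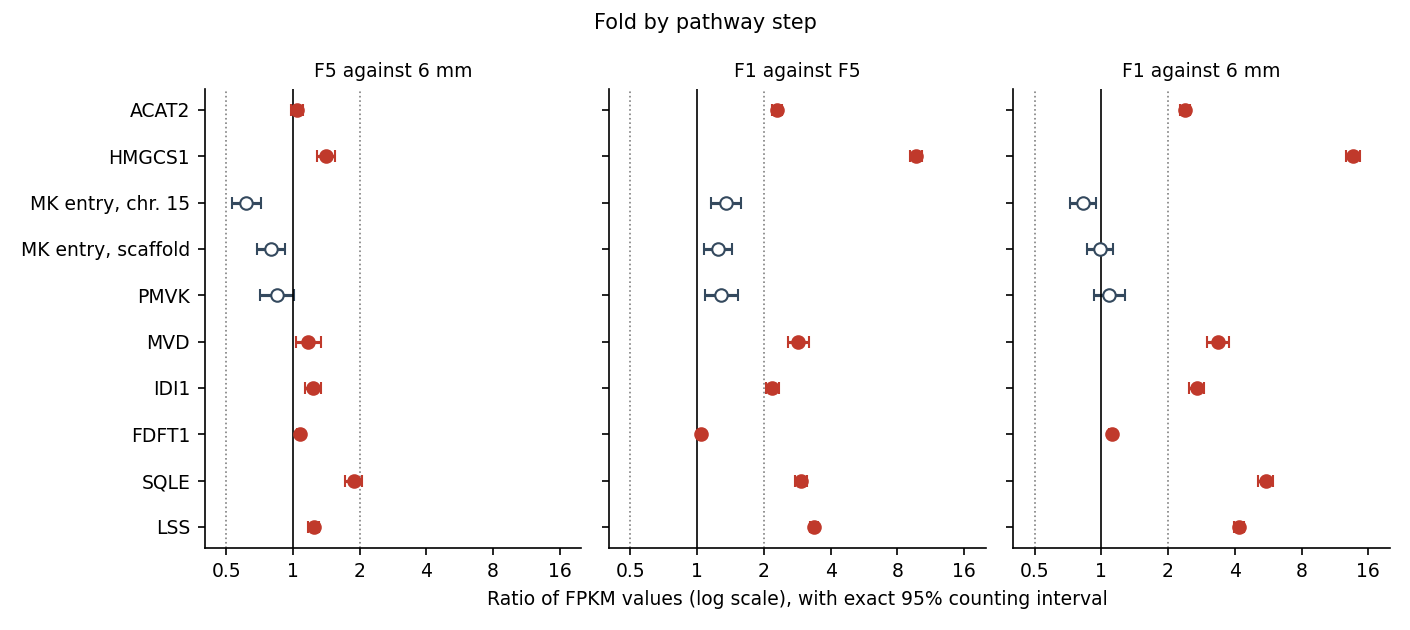
Ratio of FPKM values on a log axis for pathway steps in order from top to bottom, with exact 95% counting intervals, filled for members and open for other genes of the pathway; MK marks the entries described as mevalonate kinase, and dotted lines mark 2-fold. In F1 against F5 the ratios run from 9.72 for HMGCS1 down to 1.04 for FDFT1, and the open points of the 2 MK entries are at 1.35 and 1.24; neither entry is annotated as MVK.

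The order of the members by FPKM, a scale per gene length, changed more in the second step than in the first. In 6 mm and in F5 the order was FDFT1, ACAT2, LSS, IDI1, MVD, HMGCS1 and SQLE. LSS and IDI1 were neighbours whose intervals overlapped in both libraries, and in F5 the intervals of MVD and HMGCS1 and those of HMGCS1 and SQLE overlapped too. In F1 the order was HMGCS1, FDFT1, LSS, ACAT2, IDI1, MVD and SQLE, and only the intervals of FDFT1 and LSS overlapped.

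The levels also drew closer together. The highest member was 12.6-fold above the lowest in 6 mm, 7.24-fold in F5 and 3.57-fold in F1. FDFT1 made up 44.2% of the summed FPKM of the 7 enzymes in 6 mm, 41.0% in F5 and 17.6% in F1. HMGCS1 went from 5.03% in 6 mm and 6.11% in F5 to 24.5% in F1, and LSS from 11.6% and 12.4% to 17.2%. ACAT2, MVD, IDI1 and SQLE each moved by less than 4 percentage points from 6 mm to F1. These shares, like the ratios between enzymes of 1 library, are the same under each scaling between libraries. By that measure FDFT1 stood 12.6-fold above SQLE, the enzyme after it, in 6 mm, 7.24-fold in F5 and 2.57-fold in F1. ACAT2 stood 3.48-fold and 2.59-fold above HMGCS1 in 6 mm and F5, and was at 0.610 of it in F1.

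**Figure D3:**
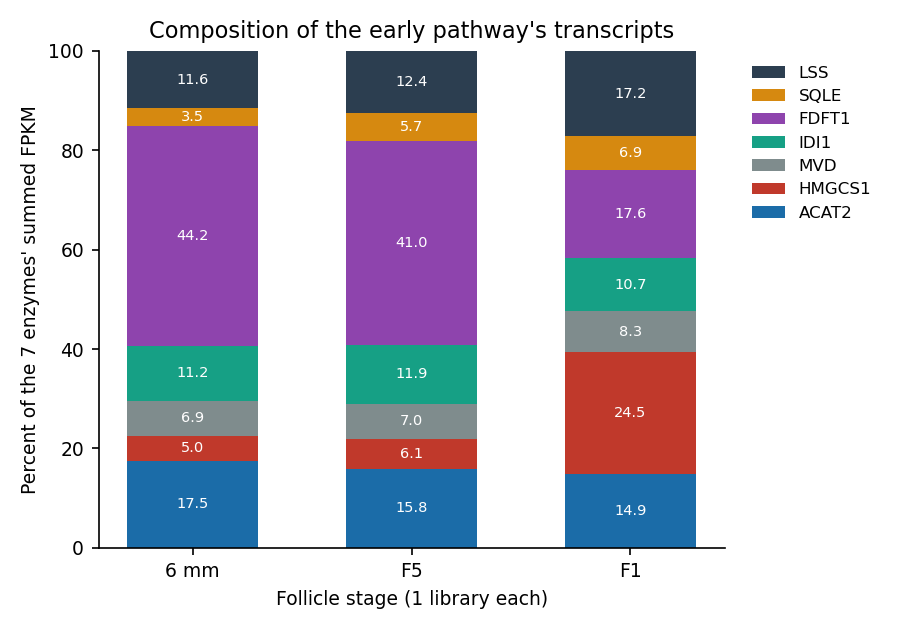
Percent of the summed FPKM of the 7 enzymes with reads that each enzyme held in the 3 libraries, stacked in pathway order from ACAT2 at the bottom to LSS at the top. FDFT1 holds 44.2% in 6 mm and 17.6% in F1, and HMGCS1 5.03% and 24.5%.

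Members differed in how their whole log2 ratio from 6 mm to F1 was divided between the steps. The step from F5 to F1 held 94.8% of it for ACAT2, 87.0% for HMGCS1, 86.7% for MVD, 84.9% for LSS and 78.9% for IDI1. SQLE had 63.1% there, the least of the 6 enzymes that were 2-fold higher in F1. These parts are of the values as deposited and move with the scaling between libraries. By the same-sum scaling the ACAT2 difference of log2(FPKM + 1) was -0.13 in the first step, 1.07 in the second and 0.93 from 6 mm to F1. For FDFT1 the division has no meaning, since its whole ratio as deposited was 0.16 on the log2 scale.

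To read these counts against all genes, the difference of log2(FPKM + 1) was taken over genes that reached an FPKM of 1 in one or both libraries, and a gene was called at a difference of 1, which is 2-fold. In F5 against 6 mm, 0 of the 7 enzymes were called higher and 0 lower, where 7.64% of 12611 genes were called higher and 10.8% lower. The members' median difference was 0.30 and that of all genes -0.13. SQLE came nearest to the threshold at 0.88, and ACAT2 and FDFT1, at 0.06 and 0.10, changed sign with the scaling.

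In F1 against F5, 6 of 7 enzymes were called higher and 0 lower, where 5.09% of 11758 genes were called higher and 22.9% lower. The members' median was 1.49 and that of all genes -0.53. Counted from the highest difference, HMGCS1 ranked 47, LSS 224, SQLE 300, MVD 309, ACAT2 447 and IDI1 491 of the 11758 genes, and FDFT1 ranked 2305. Thus 6 members lay within the top 4.18% of genes, and FDFT1, which hardly differed as deposited, still lay above the median gene by 0.59. Libraries scaled by median ratio instead had 1145 genes higher and 1481 lower, against 599 and 2697 as deposited, and by upper quartile 1116 and 1512. The members' distance from the median gene was 2.02 as deposited. Over the 4 other scalings the distance was 2.002 to 2.08. That range is no check, since a scaling moves the members and the median gene nearly alike. Other settings can change the distance. It was 2.12 with a pseudocount of 0.1 and 1.74 with a pseudocount of 5. Without the filter it was 1.85, and the stricter filter (FPKM of 5) left it at 2.02.

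In F1 against 6 mm, 6 of 7 enzymes were again higher and 0 lower, beside 7.45% and 32.8% of 12482 genes. This comparison shares its libraries with the other pair and is no further evidence. The members' median was 1.72 and that of all genes -0.64. HMGCS1 ranked 83, SQLE 257 and LSS 326 from the highest, and FDFT1 2394. With the libraries scaled to the same FPKM sum ACAT2 fell under 2-fold, at 0.93. That left 5 of 7 higher, beside 5.56% of all genes. Median-ratio scaling gave 1614 genes higher and 2407 lower against 930 and 4100 as deposited, and upper quartile scaling 1510 and 2532.

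**Figure D4:**
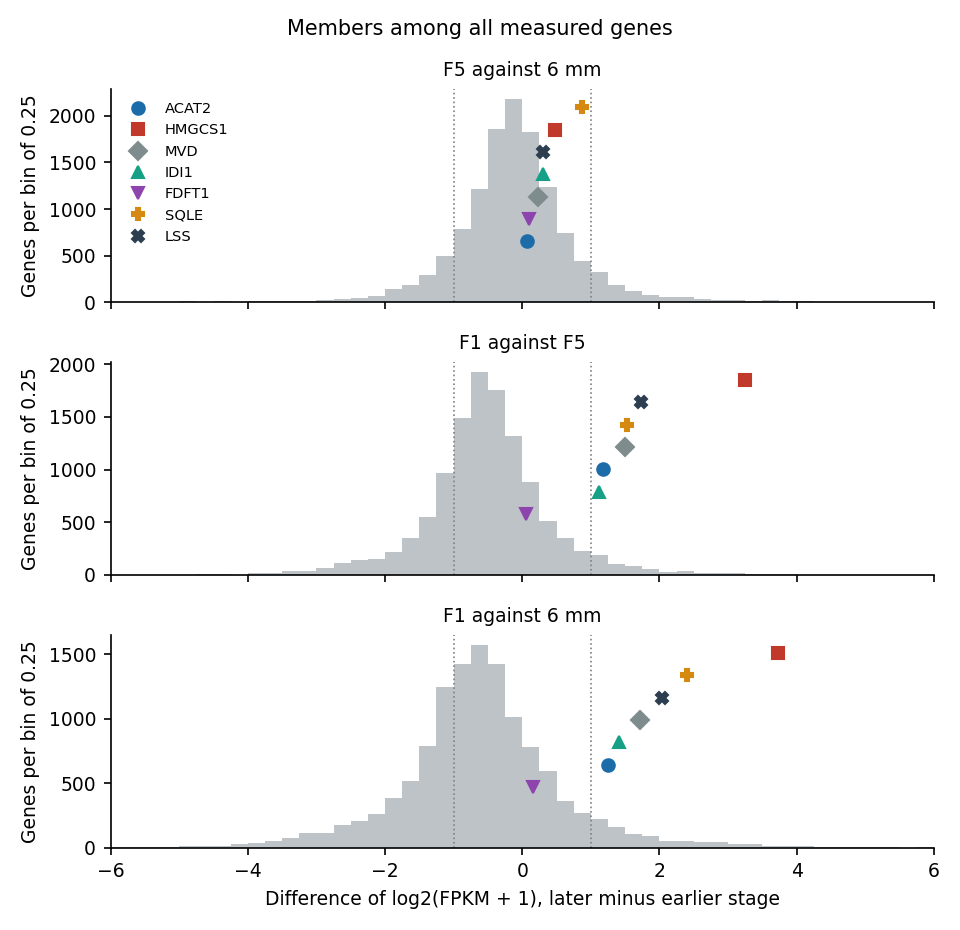
Number of genes per bin of the difference of log2(FPKM + 1) in each comparison (grey), with the 7 enzymes marked at their own difference; the height of a mark has no meaning and dotted lines stand at 2-fold. In F1 against F5 the bulk of genes lies below 0, with a median of -0.53, while 6 enzymes lie beyond 1 and FDFT1 at 0.06.

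The enzymes after lanosterol were also mostly higher in the second step. Of 9 measured genes 7 were at least 2-fold higher in F1 than in F5 and 1 was lower. The shares of all genes were 5.09% and 22.9%. The median was 1.52 beside 1.49 for the early enzymes. In F5 against 6 mm 3 of 9 were higher, CYP51A1 and EBP among them, beside 7.64% of all genes. The median there was 0.58 beside 0.30 for the early enzymes. CYP51A1, the demethylase that acts on lanosterol itself, was at 30.8, 65.3 and 138 in 6 mm, F5 and F1. It fell under 2-fold in both steps by the same-sum scaling. That scaling left 2 of 9 higher in F5 against 6 mm and 6 of 9 in F1 against F5. With it 5.95% and 4.25% of all genes were higher in those comparisons. DHCR7, which removes the last extra double bond of the ring, was at 16.3, 17.2 and 129. MSMO1, a sterol methyl oxidase, was at 53.9, 57.7 and 288, and the desaturase SC5D at 40.7, 76.0 and 253. The lower gene was EBP, a sterol isomerase, at 1.25, 6.09 and 1.595 from 5, 23 and 6 reads. Whether the early and late enzymes differ in their response was not tested, as 1 library a stage allows no test.

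Among the genes that control sterol synthesis, SREBF2 and SCAP were higher in both steps and SREBF1 in the second. SREBF2, the SREBP that drives cholesterol genes in mammals, was at 52.7 in 6 mm, 158 in F5 and 320 in F1. It was 3.01-fold higher in the first step (2.88 to 3.15), in which 0 early enzymes were called, and 2.02-fold higher in the second (1.96 to 2.08), a difference that was under 2-fold with libraries scaled to the same sum. SCAP, which carries the SREBPs out of the endoplasmic reticulum, was at 33.3, 127 and 376. SREBF1, matched by its KEGG symbol, was at 14.3, 25.3 and 64.5. INSIG1, which holds SCAP back when sterol is plentiful and is itself an SREBP target in mammals, was at 28.3, 50.3 and 50.4. In the second step its ratio as deposited was 1.00 (0.922 to 1.09). Its log2 difference in that step ran from -0.11 to 0.52 over the scalings, so the data set no direction for INSIG1 there. In F1 against 6 mm the INSIG1 difference was 0.81 as deposited. It passed 2-fold by median-ratio and upper quartile scaling, at up to 1.39.

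Among the 14 measured genes of the list of sterol regulation and transport, 4 were higher and 3 lower in F5 against 6 mm, which became 3 and 4 by the same-sum scaling. As deposited the lower genes of the list were ABCA1, NPC1 and INSIG2, a paralogue of INSIG1. By the same-sum scaling 5.95% of all genes were higher and 14.6% lower in F5 against 6 mm. Of 12 measured in F1 against F5, 6 were higher and 0 lower (median 0.87). The 6 became 5 by the same-sum scaling, beside 4.25% of all genes. They became 7 by median-ratio and upper quartile scaling, beside 9.72% and 9.49% of all genes. In F1 against 6 mm 6 of 14 were higher and 3 lower. Those counts became 6 and 4 by the same-sum scaling, 8 and 2 by median ratio and 8 and 3 by upper quartile. The shares of all genes in F1 against 6 mm were 5.56% higher and 45.2% lower by the same sum. By median ratio they were 13.0% and 19.4%, and by upper quartile 12.2% and 20.4%. As deposited, the shares of all genes called higher and lower were 7.64% and 10.8% in F5 against 6 mm. They were 5.09% and 22.9% in F1 against F5, and 7.45% and 32.8% in F1 against 6 mm. NPC2, which moves cholesterol out of lysosomes, was at 175, 2452 and 22487, and STARD4, a cytosolic sterol carrier, at 1.52, 4.22 and 15.5. ABCA1, which exports cholesterol, was lower at 16.4, 0.753 and 0.577.

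Of the list of genes that use cholesterol, several that serve progesterone synthesis were at least 2-fold higher in F5 than in 6 mm. Of 8 measured, STAR, CYP11A1, HSD3B2, FDX1 and LCAT passed, 5 of 8 beside 7.64% of all genes, while TSPO, FDXR and SOAT1 were called in neither direction. LCAT esterifies cholesterol and was low, at 0.316 in 6 mm and 2.004 in F5. In F1 against F5, STAR, CYP11A1, HSD3B2 and FDXR were higher, 4 of 8, and TSPO was lower, beside 5.09% and 22.9% of all genes. By median-ratio and upper quartile scaling the counts of the list were 5 and 0. The shares of all genes were then 9.72% higher and 12.6% lower by median ratio. By upper quartile they were 9.49% and 12.9%. STAR, which carries cholesterol into mitochondria, was at 2.14, 55.1 and 599, CYP11A1, which cleaves its side chain, at 2.65, 126 and 568, and HSD3B2, which makes progesterone, at 67.3, 487 and 1938. FDXR, which passes electrons by way of FDX1 to CYP11A1, was at 27.8, 45.1 and 127 and was called higher in the second step. FDX1 was at 4.75, 13.4 and 9.56 and was called in neither direction in that step.

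Supply of acetyl-CoA was mixed. ACLY, which cuts citrate to acetyl-CoA in the cytosol, was at 69.2 in 6 mm, 67.6 in F5 and 265 in F1, and F1 was 3.92-fold above F5 (3.78 to 4.07). SLC25A1, which exports the citrate from mitochondria, was at 27.9, 147 and 106, with its highest value in F5 as deposited. Its log2 difference in F1 against F5 was -0.47 as deposited and ran from -0.58 to 0.06 over the scalings. ACAT1, the mitochondrial thiolase and paralogue of ACAT2, was at 69.7, 77.9 and 58.8, called in no comparison. OXCT1, an enzyme of ketone body use, was at 25.3, 57.0 and 30.4. Over the 7 measured genes of acetyl-CoA supply and ketone bodies, 2 were higher in F5 than in 6 mm, beside 7.64% of all genes. ACLY alone was higher in F1 than in F5, beside 5.09% of all genes. Of the list 0 were lower in either comparison, beside 10.8% and 22.9% of all genes. By the same-sum scaling 1 was higher in F5 than in 6 mm, beside 5.95% of all genes. With it 3 were lower in F1 than in F5, beside 26.7% of all genes.

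Enzymes that take isoprene units elsewhere than to sterols were not called higher. Of 10 measured genes of the isoprenoid branches 0 were higher in any comparison. Over all genes 7.64% were higher in F5 against 6 mm and 7.45% in F1 against 6 mm. In F1 against 6 mm 3 of 10 were lower, beside 32.8% of all genes. In F1 against F5 RABGGTB, FNTA and PDSS1 were lower, 3 of 10, with a list median of -0.79 beside -0.53 for all genes. As 22.9% of all genes were called lower and 5.09% higher in that comparison, 3 and 0 of 10 are near the background. RABGGTB, a subunit of the enzyme that prenylates Rab proteins, was at 32.1, 18.4 and 8.23, and the farnesyltransferase subunit FNTA at 10.5, 7.79 and 3.22. PDSS1, which makes the tail of ubiquinone, was at 11.5, 16.6 and 7.35. None of the 3 calls in F1 against F5 held under median-ratio or upper quartile scaling, where the median was -0.31 and -0.33. Nor did they hold with the same sum without the 10 highest genes.

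Fatty acid synthesis, which shares SREBP control in mammals, was followed in 7 measured genes. Of these, 0 were called in F5 against 6 mm, beside 7.64% of all genes higher and 10.8% lower. Their differences in F5 against 6 mm ran from -0.91 to -0.08. By the same-sum scaling FADS2 was called lower, beside 14.6% of all genes. The list median in F5 against 6 mm as deposited was -0.71 beside -0.13 for all genes. In F1 against F5 3 of 7 were higher, beside 5.09% of all genes. The list median was 0.25 beside -0.53 for all genes. In F1 against 6 mm 2 of 7 were higher and 0 lower, beside 7.45% and 32.8% of all genes. These counts became 0 and 1 by the same-sum scaling, beside 5.56% and 45.2% of all genes. They became 3 and 0 by median-ratio and upper quartile scaling. The shares of all genes were then 13.0% and 19.4% by median ratio, and 12.2% and 20.4% by upper quartile. The genes higher in F1 than in F5 were SCD, FADS2 and ELOVL5. SCD, a desaturase, was at 32.6, 19.6 and 79.9. FADS2, another desaturase, was at 8.87, 4.27 and 22.9, and the elongase ELOVL5 at 40.6, 24.2 and 63.9. FASN, fatty acid synthase, was at 60.1, 56.8 and 67.9 and was called in no comparison.

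**Figure D5:**
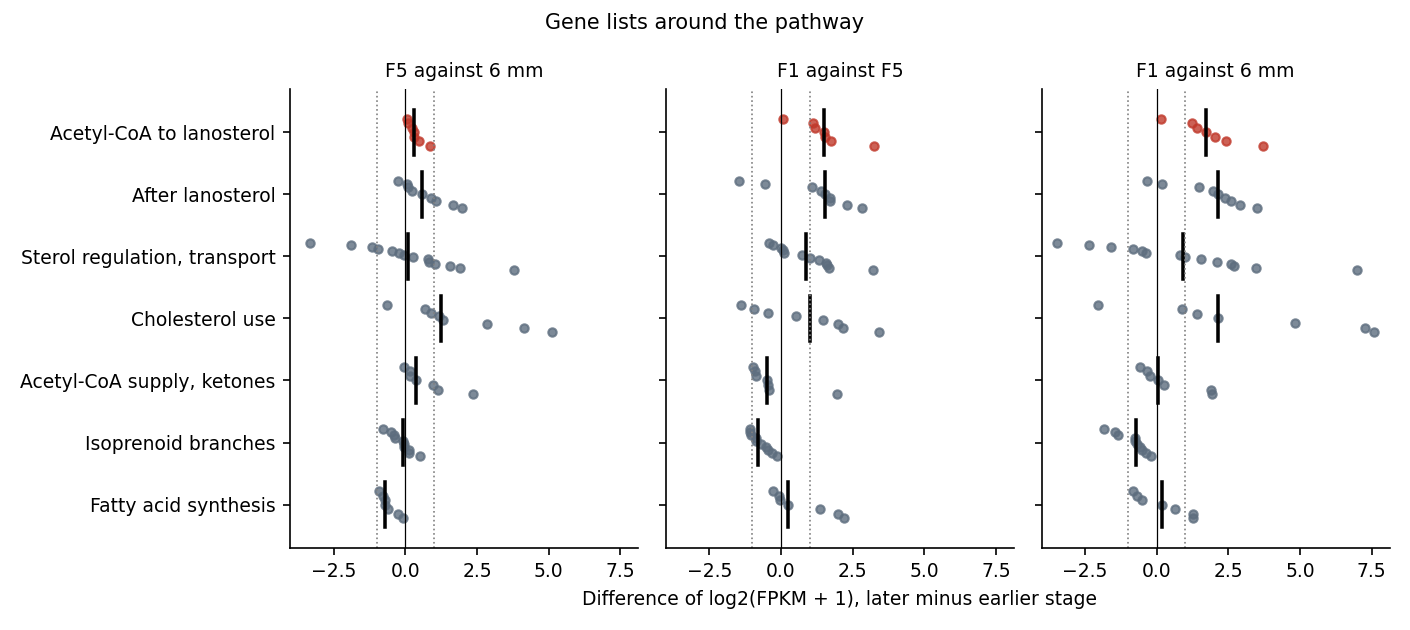
Difference of log2(FPKM + 1) for each measured gene of 7 lists in the 3 comparisons, with a black bar at each list's median and dotted lines at 2-fold; the early enzymes are in red. In F1 against F5 the early and late enzymes have medians of 1.49 and 1.52, the isoprenoid branches -0.79 and fatty acid synthesis 0.25.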

How the data were processed

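Messenger RNA of hen granulosa cells was enriched by its poly-A tails, per the labels' protocols. TopHat2 2.0.12 and HTSeq 0.6.1 are named, without their roles or settings, per the submitters' processing notes. The build and the use of strand: not given in the sources used here. Overlapping genes on opposite strands may share reads. The authors deposited FPKM values, and 2 lines per file without a gene or value were not used.

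Library totals were inferred from the commonest ratios between libraries of a gene's FPKM values. The values of 17019 genes above 0 were whole reads over a whole length and library total, to within a relative deviation of 1.91e-14. As reads, the smallest such whole numbers were used (94.7%, 93.8% and 94.8% of the totals for 6 mm, F5 and F1), which makes intervals slightly too wide. The files' length column was a multiple of the recovered length for 7.53% of genes and was not used. Exact 95% Poisson intervals of levels and binomial intervals of ratios were computed with scipy 1.17.1 in Python 3.11.15; the recovery was tested on simulated data. Differences are of log2(FPKM + 1), which understates low genes.

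The members and lists were chosen with earlier results of these data known. Named from the lists were PMVK, SREBF1, SREBF2 and INSIG1 and, from each, at most 4 genes with an FPKM of at least 10 and a 2-fold difference, those farthest between F1 and 6 mm; ACAT1, EBP, CYP51A1, FASN and the genes that complete counts of 5 or fewer were added after their values were seen. Some genes that the rule names are not reported here. A listed gene without an entry under the rule was looked up by its KEGG symbol. Alternatives were pseudocounts of 0.1 and 5, no filter or one at an FPKM of 5, 4 scalings, and summing entries of a symbol. No promoter or protein sequence was used here.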

Additional observations from a re-analysis of the deposited data

How the results depend on the processing

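Members at least 2-fold higher numbered 0 of 7 in F5 against 6 mm, 6 in F1 against F5 and 6 in F1 against 6 mm. The number lower was 0 in each. These counts were the same under the 2 other pseudocounts and 3 of 4 scalings. The 2 other filters could not change them, since the 7 members were at an FPKM of at least 19.35 in each library. With the libraries scaled to the same FPKM sum the 6 became 5 in F1 against F5 and 5 in F1 against 6 mm. By that scaling 4.25% and 5.56% of all genes were higher in those comparisons. The members' median difference moved with the scaling. Scaling to the same sum gave 0.098, 1.38 and 1.41 in the 3 comparisons in that order, against 0.30, 1.49 and 1.72 as deposited. The same sum without the 10 genes of highest mean gave 0.15 in F5 against 6 mm, median-ratio scaling 2.02 in F1 against F5 and 2.30 in F1 against 6 mm, and upper quartile scaling 1.99 and 2.25. A scaling divides all genes of a library by the same divisor, so it moves the median of all genes along with the members. With F5 and then 6 mm as the stage below F1, median ratio moved the median of all genes by 0.45 and 0.50. Upper quartile moved it by 0.43 and 0.45 and the same sum by -0.09 and -0.27. In F5 against 6 mm the same sum moved it by -0.18 and the same sum without the top genes by -0.13. In F5 against 6 mm 964 genes were higher and 1356 lower as deposited, and 760 and 1861 with the same sum.

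Of 21 differences of single members, 4 changed sign under some scaling, namely FDFT1 in each comparison and ACAT2 in F5 against 6 mm, and 2 changed their call, IDI1 and ACAT2 with the same sum. No member had more than 1 entry, so summing entries changed nothing. No paired analysis was possible because each stage had 1 library, and for the same reason no replicate was left out. Depth limits the values of EBP, with 5, 23 and 6 reads, and of INSIG2, with 147, 15 and 2, in 6 mm, F5 and F1.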

Other observations

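Of 5726 other named genes that reached an FPKM of 10 in any library, 10 had steps nearest to the early enzymes' median pattern, which was 0.30 for the step to F5 and 1.49 for the step to F1 on the log2(FPKM + 1) scale. Likeness was the straight-line distance between the pairs of steps over the 3 libraries. AACS, which makes acetoacetyl-CoA in the cytosol and so feeds the same pathway, was next to the nearest pair at 17.0 in 6 mm, 19.5 in F5 and 58.1 in F1, a distance of 0.11. Nearer were DPP10, at 17.6, 21.8 and 66.8 with a distance of 0.08, and SEC14L1, of the family of lipid-binding SEC14 proteins, at 29.2, 38.0 and 106 with a distance of 0.08.

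The others were REEP5, a protein that shapes the endoplasmic reticulum, at 148, 177 and 538, CANX, a chaperone of that compartment, at 63.3, 84.3 and 252, KIAA0513, DCP2, an mRNA decapping enzyme, DMA, LSM1, which acts with decapping, and TLCD1, with distances from 0.11 to 0.17. The distances of the members themselves from their median pattern were 0.07 for MVD, 0.24 for LSS, 0.38 for IDI1, 0.39 for ACAT2, 0.58 for SQLE, 1.45 for FDFT1 and 1.76 for HMGCS1. Each member with reads other than MVD, 6 of 7, was further from it than the 10 genes named. Those 10 were picked as the nearest of 5726, so this contrast says nothing about the members. The pattern's first step, 0.30, was IDI1's own and its second, 1.49, MVD's own, so the closeness of MVD is partly built in. By the members' distances, the median pattern describes few of them closely.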
